A study of Mus musculus with 12 samples.

Results

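The comparison described here sets mouse neural progenitor cells (mNPCs) that carry a stopped copy of *Kmt2a* against nestin-Cre carriers in which both copies of the gene are intact. These genotypes were picked from the 4 of the series for the tight agreement of their libraries, leaving aside the more scattered *Kmt2a+/+* libraries, and they hold 6 of the 12 libraries, 3 *Kmt2a+/LSL* and 3 nes-cre+/-. The *Kmt2a+/LSL* cells, titled as knockouts, are heterozygous: a single copy holds a loxP-flanked stop (loxP-stop-loxP, LSL) within its first intron, designed to halt transcription, and no Cre is present to remove it. The nes-cre+/- cells have no LSL allele and carry the Cre recombinase transgene driven by nestin regulatory sequence, which is active in neural progenitors. The genotypes therefore differ at both the LSL allele and the transgene, and within these 6 libraries those differences cannot be told apart. All cells came from hippocampi of newborn (P0) pups on a pure C57BL/6J background, with an LSL line that goes back to a single founder, and were seeded on Matrigel and, after the first split, grown on poly-D-lysine and laminin, with FGF-2 and EGF, before poly(A) RNA was sequenced. The other 6 libraries, 3 *Kmt2a+/+* and 3 nes-cre+/-Kmt2a+/LSL (the LSL allele with nestin-Cre), stay outside the main fit; their values are set beside those of the comparison, they are contrasted with each other once for nestin-Cre, and they enter alternative fits of 9 and 12 libraries.

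KMT2A (also MLL1) is a histone methyltransferase that places methyl groups on lysine 4 of histone H3, a mark found at active promoters and enhancers. It reads unmethylated CG dinucleotides through its CXXC domain and works in a complex with WDR5, RBBP5, ASH2L, DPY30 and menin. Its best known targets are the HOX genes and their cofactors of the MEIS family, and loss of a single copy in humans causes Wiedemann-Steiner syndrome. In the nervous system it is known for its role in neural stem cells and in neurons of the hippocampus and cortex.

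Library totals of the 6 libraries lay between 22715382 and 26419144 estimated counts. Values given below as normalized counts are these counts divided by the library's TMM-scaled size and multiplied by the mean size of the 6, so that 3 counts correspond to between 2.77 and 3.18 normalized counts in them. Pearson's r of log2 CPM between libraries, a description across genes, was 0.980 to 0.983 within a genotype and 0.978 to 0.982 between them. RNA from the Y chromosome split the libraries unevenly. It summed to between 3684 and 5066 counts in all 3 *Kmt2a+/LSL* libraries and to 5055 counts in nes-cre+/- library 3, but only to 23 and 38 counts in nes-cre+/- libraries 1 and 2. Sex, by this measure, moved with genotype in these libraries, and its values are given beside the genes it touches. Since nes-cre+/- library 3 is the only control with Y-linked RNA, a fit with a term for Y-linked RNA and a fit over the 4 libraries that hold it both set the 3 *Kmt2a+/LSL* libraries against that single library, which is assumed to vary like the others, and they are not separate checks. The methods call the libraries of a genotype biological replicates without saying how many pups or cultures they came from, and the nes-cre+/- libraries differ among themselves in Y-linked RNA. P-values measure the spread between these libraries, which may in part be technical. Because these genotypes were picked for that small spread, the p-values and the calls lean on the choice and may be too small: the common biological coefficient of variation that edgeR estimated was 0.174 over the 6 libraries and 0.368 over all 12, where the *Kmt2a* adjusted p was 0.247.

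Of 16045 genes tested, 2 passed an adjusted p under 0.05, a share of 0.0125%, and both were lower in *Kmt2a+/LSL*. They were *Kmt2a* itself and *Grb10*, an imprinted gene whose product binds the insulin and IGF1 receptors and dampens their signals. No gene was higher at that threshold in edgeR's quasi-likelihood test with Benjamini-Hochberg adjustment, in which 241 genes were higher at an unadjusted p under 0.05, while the DESeq2 Wald test called 4 genes higher and 15 lower (0.118% of 16037).

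*Kmt2a* (ENSMUSG00000002028) is on chromosome 9 (GRCm38, 44803355 to 44881296, minus strand). It had 4088, 4087 and 4097 normalized counts in the 3 *Kmt2a+/LSL* libraries and 6967, 7626 and 7355 in the 3 nes-cre+/- libraries. The *Kmt2a+/LSL* libraries were nearly identical to each other and far below each nes-cre+/- library. The means were 4091 ± 5.61 (SD, n = 3) and 7316 ± 331 (SD, n = 3), so the *Kmt2a+/LSL* level was 55.9% of the control level with a 95% interval of 49.9% to 62.7%. An even halving lies just inside that interval. The count sums all *Kmt2a* transcripts, so it is not the level of full-length RNA alone. The paper reports that these cells shift from the full-length transcript to a short one without the enzymatic SET domain. In the paper's own test against *Kmt2a+/+* the gene was not among those called. The log2 fold change was −0.84 (SE 0.07), with an adjusted p of 0.0217 in edgeR's quasi-likelihood test and a range of 7.36e-21 to 0.408 over the alternatives. A two-sided exact permutation test over the 6 libraries gave p = 0.1, the smallest value that 3 against 3 allows. The 2 other genotypes held the gene at the control level, with 6820, 7021 and 6394 normalized counts in nes-cre+/-Kmt2a+/LSL and 7325, 7441 and 7016 in *Kmt2a+/+*. All 9 libraries outside *Kmt2a+/LSL* were thus above all 3 within it.

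The size of the *Kmt2a* difference was steady while its adjusted p was not. Whichever of the 6 libraries was left out, the log2 fold change lay from −0.87 to −0.81. The edgeR adjusted p was 0.0356 without nes-cre+/- library 1, but it passed the threshold no longer without *Kmt2a+/LSL* library 1 (0.0693), 2 (0.130) or 3 (0.146), nor without nes-cre+/- library 2 (0.234) or 3 (0.0604). With a term for the presence of Y-linked RNA the log2 fold change was −0.85 (SE 0.12, edgeR adjusted p = 0.408).

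*Grb10* (ENSMUSG00000020176), on the minus strand of chromosome 11 from 11930508 to 12038683, differed by more than *Kmt2a*. Its normalized count was 1937, 2104 and 1562 in *Kmt2a+/LSL* and 4617, 4912 and 5514 in nes-cre+/-. The highest *Kmt2a+/LSL* library was well under the lowest nes-cre+/- library. The means of 1868 ± 278 (SD, n = 3) and 5014 ± 457 (SD, n = 3) put the *Kmt2a+/LSL* level at 37.3% of the control level, with a 95% interval of 30.6% to 45.4%, a 2.68-fold difference. The log2 fold change was −1.42 (SE 0.12), with an adjusted p of 0.0217 in edgeR's quasi-likelihood test and a range of 7.36e-21 to 0.234 over the alternatives. The exact permutation p was again 0.1. In the other genotypes *Grb10* was at 4818, 4369 and 5115 normalized counts with nestin-Cre and the LSL allele and at 5353, 4496 and 4170 in *Kmt2a+/+*. The low level was seen in the 3 *Kmt2a+/LSL* libraries and in none of the 9 others.

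Leaving out a library kept the *Grb10* log2 fold change between −1.52 and −1.31. Its edgeR adjusted p was 0.0356 without nes-cre+/- library 1 and 0.0288 without nes-cre+/- library 3, and it was above the threshold without *Kmt2a+/LSL* library 1 (0.0693), 2 (0.130) or 3 (0.106) or without nes-cre+/- library 2 (0.234). With a term for Y-linked RNA the log2 fold change was −1.56 (SE 0.16, edgeR adjusted p = 0.125), and over the 4 libraries with Y-linked RNA, which rests on the same single control library, it was −1.56 (SE 0.17, adjusted p = 0.132).

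The sequences just before the transcription start of *Kmt2a*, of the annotated start sites of *Grb10*, and of *Dmrt3*, the patterning gene described below, are shown because KMT2A binds CG dinucleotides and the genes differ widely in them. Each is 250 bases long, from RefSeq annotation of GRCm38.p6, read along the gene's own strand, with every CG in capitals.
*Kmt2a*, chr9:44881290-44881539, minus strand: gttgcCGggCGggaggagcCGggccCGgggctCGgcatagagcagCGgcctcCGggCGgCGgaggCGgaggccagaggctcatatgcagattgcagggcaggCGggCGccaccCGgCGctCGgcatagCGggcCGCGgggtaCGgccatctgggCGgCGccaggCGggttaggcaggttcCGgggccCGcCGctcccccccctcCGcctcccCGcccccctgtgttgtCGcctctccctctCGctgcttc
*Grb10*, start site 1, chr11:12037421-12037670, minus strand: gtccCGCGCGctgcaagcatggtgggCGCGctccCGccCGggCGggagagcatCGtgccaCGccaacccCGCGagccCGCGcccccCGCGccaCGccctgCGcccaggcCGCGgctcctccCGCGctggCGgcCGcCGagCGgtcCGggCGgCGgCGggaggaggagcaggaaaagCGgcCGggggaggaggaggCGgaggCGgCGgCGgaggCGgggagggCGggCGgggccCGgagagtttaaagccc
*Grb10*, start site 2, chr11:12027972-12028221, minus strand: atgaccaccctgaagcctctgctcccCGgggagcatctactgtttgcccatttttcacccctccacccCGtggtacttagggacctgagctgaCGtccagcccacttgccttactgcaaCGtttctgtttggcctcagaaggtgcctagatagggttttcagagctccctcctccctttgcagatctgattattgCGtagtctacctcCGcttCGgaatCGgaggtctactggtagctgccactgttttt
*Dmrt3*, chr19:25610287-25610536, plus strand: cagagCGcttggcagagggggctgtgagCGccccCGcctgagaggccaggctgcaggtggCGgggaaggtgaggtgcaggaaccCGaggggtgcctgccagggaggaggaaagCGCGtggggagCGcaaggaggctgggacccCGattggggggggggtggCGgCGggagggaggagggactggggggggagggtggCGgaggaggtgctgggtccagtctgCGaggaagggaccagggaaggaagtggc
These windows held 29 CG for *Kmt2a*, 40 and 8 CG for the start sites of *Grb10*, and 13 CG for *Dmrt3*. Of the tested genes with such a window, 86.2% had fewer CG than *Kmt2a*, 97.3% fewer than the richer *Grb10* window and 37.4% fewer than *Dmrt3*, counting each gene's richest window. The 30 bases after the richer *Grb10* window were held by 0 of the gene's GENCODE M21 transcripts, against 1 for the other *Grb10* window, 3 for *Kmt2a* and 1 for *Dmrt3*, so that window is a start site by the RefSeq table only. A CG count describes these letters and no binding was measured. A comparison of CG content over all genes that differed at an unadjusted p under 0.05 is void, since only 64.1% of the 323 genes on the lower side had a window.

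Reads of these genes could be told from those of other genes. Of the 31-base words in their transcripts, 0.00596% of those of *Kmt2a* and none of those of *Grb10* or *Dmrt3* also occurred in a transcript of another gene.

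**Figure D1:**
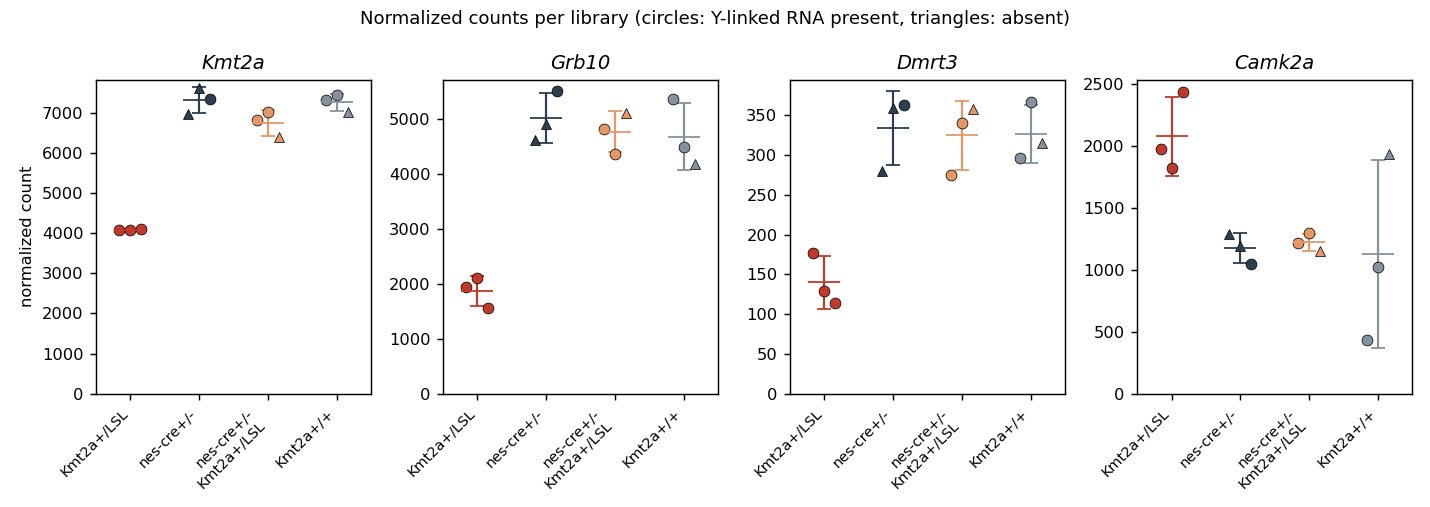
Normalized counts (y axis, linear and starting at 0) of *Kmt2a*, *Grb10*, *Dmrt3* and *Camk2a* in each of the 12 libraries by genotype (x axis), with the mean and SD of each genotype; circles are libraries with Y-linked RNA and triangles are libraries without it. The *Kmt2a+/LSL* libraries sit at 4087 to 4097 for *Kmt2a* and 1562 to 2104 for *Grb10*, below every library of the other genotypes, and the *Camk2a* values of *Kmt2a+/+* spread from 433.2 to 1940.

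Over the rest of the transcriptome the groups lay close together. At an unadjusted p under 0.05, 323 of the 16045 tested genes were lower in *Kmt2a+/LSL* (2.01%) and 241 were higher (1.5%), and these shares are the background for every gene group below. All 3 *Kmt2a+/LSL* libraries lay below all 3 nes-cre+/- libraries for 719 genes (4.48%) and above them for 573 (3.57%). The median log2 fold change of all tested genes was 0.002, and 7913 of them were negative. Precision depended on the level: of 11696 genes with a mean of at least 50 normalized counts, 10995 (94%) had a 95% interval that stayed within 1 log2 unit of no change. Among the 4349 genes below that level only 316 (7.27%) did, so the intervals of most such genes reach beyond a difference of that size. Medians of the 37 gene lists also depended on single libraries: as each of the 6 was left out in turn, the median turned its sign at least once in 15 lists and turned sign or moved by over 1.5 times in 35, the exceptions being cholesterol and fatty acid synthesis and the ventral telencephalon list. Over all alternatives the ventral telencephalon median still ran from −0.65 to −0.34. It moved by more than the spread between libraries in 8 of 16 alternatives.

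**Figure D2:**
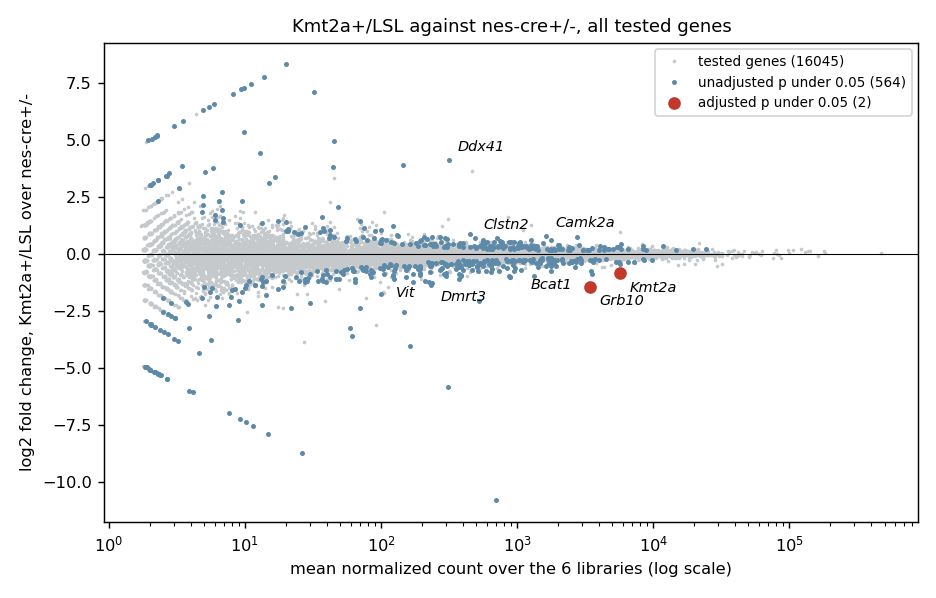
Log2 fold change of *Kmt2a+/LSL* against nes-cre+/- (y axis) plotted over the mean normalized count of the 6 libraries (x axis, log scale), each point a tested gene. Of 16045 genes, 564 with an unadjusted p under 0.05 are blue and the 2 that passed the adjusted test, *Kmt2a* and *Grb10*, are red and lie below 0.

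Behind *Kmt2a* and *Grb10*, the genes with the smallest p among those with a mean of at least 50 and no overlap were *Dmrt3*, *Vit* and *Bcat1* on the lower side. None of them passed the adjusted test in edgeR, and their values are given as such. *Dmrt3*, a DM-domain transcription factor of the medial and caudal cortical primordium, lies on chromosome 19 from 25610301 to 25623921. It had 177.4, 128.9 and 113.4 normalized counts in *Kmt2a+/LSL* and 280.3, 358.7 and 363.3 in nes-cre+/-, a log2 fold change of −1.25 (SE 0.20, edgeR adjusted p = 0.539, range over the alternatives 0.000101 to 1). The lowest p in that range came from DESeq2. *Dmrt3* followed the pattern of *Grb10* across genotypes, at 275.1, 340.3 and 357.9 in nes-cre+/-Kmt2a+/LSL and 295.8, 366.5 and 315.1 in *Kmt2a+/+*.

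*Vit* encodes vitrin, a protein of the extracellular matrix, and *Bcat1* the cytosolic branched-chain aminotransferase that feeds glutamate and nitrogen metabolism. *Vit* had 96.1, 146.9 and 144.1 normalized counts in *Kmt2a+/LSL* and 298.3, 289.2 and 281.3 in nes-cre+/-, a log2 fold change of −1.17 (SE 0.19, edgeR adjusted p = 0.539, range 0.000189 to 1). Its control libraries were tight, but *Vit* ran from 164.3 to 401.8 in nes-cre+/-Kmt2a+/LSL and from 143.4, within the *Kmt2a+/LSL* range, to 288.7 in *Kmt2a+/+*. *Bcat1* had 1284, 1134 and 1035 normalized counts in *Kmt2a+/LSL* against 1698, 1628 and 1744, a log2 fold change of −0.55 (SE 0.10, edgeR adjusted p = 0.684, range 0.00332 to 1). It was at 1488, 1260 and 1746 in nes-cre+/-Kmt2a+/LSL and 1296, 1488 and 1643 in *Kmt2a+/+*, and the lowest of these lay within the *Kmt2a+/LSL* range.

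On the higher side the genes with the smallest p were *Ddx41*, *Camk2a*, *Wls*, *Slc25a18* and *Clstn2*, and none passed the adjusted test in edgeR. This ranking too holds among genes with a mean of at least 50 and no overlap, without predicted genes. *Ddx41*, a DEAD-box RNA helicase, had 1075, 344.7 and 367.7 normalized counts in *Kmt2a+/LSL* and 30.03, 32.6 and 37.1 in nes-cre+/-. This log2 fold change of 4.16 (SE 0.49, edgeR adjusted p = 0.151, range 2.58e-20 to 1) was the largest among the named genes, and *Kmt2a+/LSL* library 1 stood apart. Without that library it was 3.42 with an edgeR adjusted p of 0.00515. High and low values of *Ddx41* also occurred within the other genotypes, at 36.1, 22.2 and 728.2 in nes-cre+/-Kmt2a+/LSL and 21.1, 15.8 and 322 in *Kmt2a+/+*.

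*Camk2a* encodes the alpha subunit of CaMKII, a kinase of synaptic plasticity. Its normalized counts were 1980, 1820 and 2433 in *Kmt2a+/LSL* and 1288, 1197 and 1046 in nes-cre+/-, a log2 fold change of 0.82 (SE 0.13, edgeR adjusted p = 0.539, range 7.28e-05 to 1). The nes-cre+/-Kmt2a+/LSL libraries were like the control, while *Kmt2a+/+* held 433.2, 1021 and 1940 and so spanned most of the range. *Wls*, needed for the secretion of Wnt proteins, had 2317, 2231 and 2254 against 1519, 1785 and 1778 normalized counts, a log2 fold change of 0.42 (SE 0.09, edgeR adjusted p = 0.999). *Slc25a18*, a mitochondrial glutamate carrier, had 4358, 4473 and 4728 against 3356, 3633 and 3685, a log2 fold change of 0.35 (SE 0.08, edgeR adjusted p = 1). The absence of overlap was a condition for naming these genes, and it did not extend to the other genotypes: *Wls* was at 3084, 2123 and 2574 in nes-cre+/-Kmt2a+/LSL and 4636, 1583 and 1036 in *Kmt2a+/+*, and *Slc25a18* at 3405, 3470 and 3074 and at 2081, 4555 and 4855. *Clstn2*, a calsyntenin of the postsynaptic membrane, had 548.9, 583.5 and 678.3 against 412.5, 402.8 and 296.9, a log2 fold change of 0.70 (SE 0.16, edgeR adjusted p = 1), or 1.02 with a term for Y-linked RNA. It ran from 323.6 to 600.0 in nes-cre+/-Kmt2a+/LSL and from 396 to 599.2 in *Kmt2a+/+*.

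Further genes were followed because the study's text names them (*En2* and *Sox5*) or because they stood out in an earlier analysis of these data (*Nek7*). *Nek7*, a kinase of mitosis and of inflammasome assembly, had 426.0, 460.6 and 515.1 normalized counts in *Kmt2a+/LSL* and 545.6, 690.0 and 568.4 in nes-cre+/-, a log2 fold change of −0.36 (SE 0.13, 95% interval −0.67 to −0.06, edgeR adjusted p = 1). Its level in *Kmt2a+/+* ran from 188 to 212.8, below both genotypes compared here. *En2*, a homeobox factor of the midbrain and hindbrain, was at 36.04, 44.96 and 50.87 against 83.1, 53.64 and 71.29, a log2 fold change of −0.66 (SE 0.27, edgeR adjusted p = 1). *Sox5*, a SoxD transcription factor, overlapped between the genotypes, at 3210, 3673 and 3355 against 3548, 3409 and 3468. Its log2 fold change of −0.03 had a 95% interval of −0.20 to 0.15, and the exact permutation p was 0.8.

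The enzymes that share KMT2A's task were close to their control levels. Of 22 tested H3K4 methyltransferases and COMPASS partners, *Kmt2a* alone passed the adjusted test, and 2 were lower and 0 higher at an unadjusted p under 0.05, with a median log2 fold change of −0.04. For *Kmt2b*, the closest paralog, the log2 fold change was −0.05 with a 95% interval of −0.28 to 0.17. *Kmt2c*, *Kmt2d*, *Setd1a* and *Setd1b*, the other methyltransferases of the family, had log2 fold changes between −0.15 and −0.04. The menin gene *Men1* was at 0.07 (95% interval −0.15 to 0.29) and the core subunit gene *Wdr5* at 0.06 (95% interval −0.26 to 0.38). None of these intervals reached the size of the *Kmt2a* difference. The interval of *Dpy30*, another core subunit gene, did: its log2 fold change was 0.80 with a 95% interval of −1.16 to 2.76.

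The second of the 2 lower genes was *Kdm6a*, the H3K27 demethylase of the KMT2C and KMT2D complexes. It had 741.2, 863.3 and 703.7 normalized counts in *Kmt2a+/LSL* and 1174, 1327 and 975.6 in nes-cre+/-, a log2 fold change of −0.59 (SE 0.14, edgeR adjusted p = 1). Of 11 tested genes of a list of H3K4 demethylases and their complex partners, 1 was lower at an unadjusted p under 0.05, *Kdm5c*, at 4791, 4875 and 5166 against 7151, 6709 and 5118 (log2 fold change −0.36, SE 0.12, edgeR adjusted p = 1). Both genes are X-linked and escape X inactivation. Their 2 highest values were those of nes-cre+/- libraries 1 and 2, the libraries without Y-linked RNA, and nes-cre+/- library 3, which has it, was the lowest control library for both. Genotype and sex cannot be told apart for these genes here. *Kdm5d*, the Y-linked relative of *Kdm5c*, was at 459.3, 403.7 and 326.4 in *Kmt2a+/LSL* and at 19.02, 34.71 and 452.2 in nes-cre+/-.

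HOX genes, the classical KMT2A targets, were scarcely present, while their cofactors were well measured. Of a list of 29 genes linked to KMT2A, which holds HOX, MEIS and PBX genes together with *Mecom*, *Cdk6* and *Mef2c*, 21 were in the file and 13 passed the filter, and the 13 had a median log2 fold change of 0.00. No HOX gene exceeded 14.8 normalized counts in any of the 6 libraries, a value that *Hoxc4* reached in *Kmt2a+/LSL* library 1. *Meis1*, a HOX cofactor, was at 761.5, 758.4 and 687.8 against 693.8, 798.3 and 827.2, a log2 fold change of −0.07 (95% interval −0.31 to 0.17). *Meis2* was the single gene of the list with an unadjusted p under 0.05, at 1334, 1197 and 1054 against 1247, 1740 and 1714 (log2 fold change −0.39, SE 0.15, edgeR adjusted p = 1), and its libraries overlapped.

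Genes that pattern the dorsal telencephalon and hippocampus held more low values than the background. Of 27 tested, 7 were lower and 0 higher at an unadjusted p under 0.05, where 2.01% and 1.5% of all genes were, and the libraries were below the controls for 6 and above for 2. The median log2 fold change was −0.15, and none of the 27 passed the adjusted test. Among the 7 were *Dmrt3*, *Bhlhe22*, *Lef1*, *Lhx2*, *Gli3* and *Emx1*. Of the 29 genes of the list in the file 10 had means under 50, and the log2 fold changes ran from −2.80 to 2.36. The summed level overlapped between the genotypes, at 35200 to 38230 normalized counts in *Kmt2a+/LSL* and 34390 to 41780 in nes-cre+/-. With a term for Y-linked RNA 4 of the 27 were lower at an unadjusted p under 0.05, and the median was −0.30. Over all 27, with no such term, it was −0.28 without nes-cre+/- library 1 and −0.10 without nes-cre+/- library 3.

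*Bhlhe22*, a bHLH factor of cortical and hippocampal neurons, had 68.4, 80.9 and 107 normalized counts in *Kmt2a+/LSL* and 146.2, 160.9 and 169.9 in nes-cre+/-, a log2 fold change of −0.90 (SE 0.21, edgeR adjusted p = 1). *Lef1*, a nuclear partner of beta-catenin required for the hippocampus to form, had 23.1, 28.98 and 32.85 against 52.1, 54.7 and 48.8, a log2 fold change of −0.87 (SE 0.27, edgeR adjusted p = 1). Both were lower by a margin that left the genotypes separated. *Lhx2*, a LIM factor that sets the boundary between cortex and hem, had 2037, 2274 and 2396 against 2341, 2885 and 3329 (log2 fold change −0.35, edgeR adjusted p = 1), with overlapping libraries.

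Several other dorsal factors at higher levels differed by less than their spread. The log2 fold change was −0.18 for *Emx2* (95% interval −0.43 to 0.08), a factor of hippocampal growth, and −0.11 for *Prox1* (95% interval −0.36 to 0.15), which marks dentate granule cells. It was −0.19 for *Nr2f1* (95% interval −0.48 to 0.10), an orphan receptor of area patterning, and 0.08 for *Zbtb20* (95% interval −0.17 to 0.34), a factor of CA1 identity. The pair of genes above the controls in every library were *Tbr1*, at 62.8, 68.9 and 66.8 against 41.1, 60.0 and 62.5, and *Tfap2c*, at no more than 5 normalized counts. The dorsal list therefore held both the low members named above and well-measured members with intervals around 0.

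Genes of other brain regions were at low levels. Of 12 tested genes of the ventral telencephalon and GABAergic lineage all 12 had a negative log2 fold change, with a median of −0.57 (range −1.17 to −0.18), 1 was lower and 0 higher at an unadjusted p under 0.05, and none passed the adjusted test. Over the genes of this list in the file the normalized counts summed to between 1136 and 1426 in *Kmt2a+/LSL* and between 1574 and 1805 in nes-cre+/-. Their summed level did not overlap between these genotypes, but it was 1171 to 1614 in *Kmt2a+/+* and 1227 to 1615 in nes-cre+/-Kmt2a+/LSL, which overlap *Kmt2a+/LSL*, and 11 of the genes had means under 50. Under a term for Y-linked RNA 8 of the 12 were negative, with a median of −0.34. The lower gene was *Sp9*, a zinc finger factor of ganglionic eminence interneurons, at 33.27, 17.99 and 38.15 against 62.1, 47.3 and 82.0 (log2 fold change −1.10, SE 0.36, edgeR adjusted p = 1). Of 14 tested midbrain and hindbrain genes 3 were lower at an unadjusted p under 0.05, *En2*, *Pax3* and *Irx2*, and 13 of those in the file had means under 50. Their median of −0.53 was −0.45 with a term for Y-linked RNA and −0.035 over the libraries with Y-linked RNA, which leave out nes-cre+/- libraries 1 and 2, and was −0.25 without nes-cre+/- library 1 alone. In bulk libraries such as these, fewer cells of a kind and less RNA per cell cannot be told apart.

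**Figure D3:**
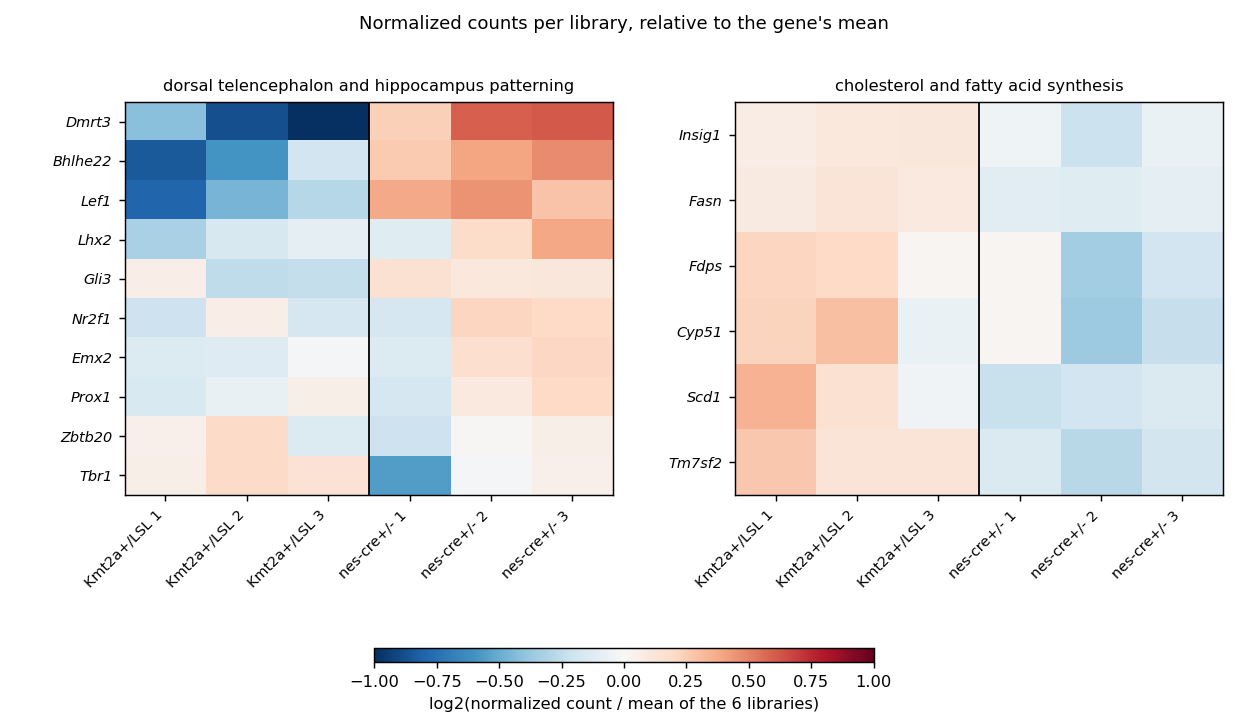
Heat maps of the 6 libraries (columns) for the 10 dorsal telencephalon genes of at least 20 normalized counts on average and the 6 cholesterol and fatty acid genes that the text names (rows), coloured by the log2 ratio of each library to the mean of the 6, from −1 to 1. *Dmrt3*, *Bhlhe22* and *Lef1* are low in the 3 *Kmt2a+/LSL* columns, and the sterol and fatty acid genes lie within a narrower band, with *Tm7sf2* and *Fasn* separated between genotypes.

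Signalling pathways of the hippocampal primordium came next. Of 42 tested Wnt pathway genes, 5 were lower and 0 higher at an unadjusted p under 0.05, with a median log2 fold change of −0.07 and none past the adjusted test. The 5 were the receptor *Fzd9* (−0.33), the coreceptor *Lrp5* (−0.23), the secreted antagonists *Sfrp1* (−0.30) and *Dkk3* (−0.62), and *Lef1*. Receptors and antagonists were thus both among them. With a term for Y-linked RNA, 1 of the 42 was lower. *Axin2*, a feedback target of Wnt signalling, was at 2865, 2189 and 2899 in *Kmt2a+/LSL* and 2858, 2817 and 2605 in nes-cre+/-, a log2 fold change of −0.06 (95% interval −0.32 to 0.21).

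In the Hedgehog pathway 2 of 15 tested genes were lower at an unadjusted p under 0.05, the transcription factor *Gli3*, at 1087, 870.3 and 876.4 against 1150, 1112 and 1121, and the coreceptor *Cdon*, with a log2 fold change of −0.53 (SE 0.19, edgeR adjusted p = 1). The median of the list was 0.02, and it ran from −0.14 without *Kmt2a+/LSL* library 3 to 0.08 without nes-cre+/- library 1. Among 25 Notch genes the ligand gene *Dll4* was the single lower member (−0.87), and the median was −0.08, from −0.14 without nes-cre+/- library 1 to −0.03 without nes-cre+/- library 3. Of 28 BMP and ID genes, 0 were lower or higher at an unadjusted p under 0.05 in edgeR, and the median was −0.07. No member of these pathways passed the adjusted test.

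The cells carried the RNA of neural progenitors in both genotypes. *Nes* was at 17590, 11870 and 12990 normalized counts in *Kmt2a+/LSL* and 15170, 9709 and 8727 in nes-cre+/-, and *Sox2* at 7944, 9131 and 8546 against 7999, 9298 and 9524. Of 25 stem and progenitor markers, 3 were lower and 0 higher at an unadjusted p under 0.05, the factors *Sox3* (−0.40) and *Nr2e1* (−0.31) and the RNA-binding protein gene *Msi1* (−0.24), with a median log2 fold change of −0.08 that ran from −0.19 without *Kmt2a+/LSL* library 2 to −0.04 without nes-cre+/- library 3. None passed the adjusted test.

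Genes of neuron differentiation were present at levels that overlapped between the genotypes. Over the 28 in the file the normalized counts summed to between 83460 and 101600 in *Kmt2a+/LSL* and between 86420 and 94360 in nes-cre+/-, with 6 of them under a mean of 50. *Stmn2*, a marker of postmitotic neurons, had at most 2.1 normalized counts in any of the 6 libraries, and *Dcx*, of neuroblasts, had 239.4, 297.8 and 238.5 against 401.5, 220.9 and 192.4. Of 27 neuron genes, 1 was lower (*Rbfox3*, −0.89) and 1 higher (*Tubb3*, 0.34) at an unadjusted p under 0.05, and the median was 0.01. Astrocyte RNA varied more within a genotype than between them: *Gfap*, the filament protein of astrocytes and of adult-type stem cells, had 3431, 4690 and 2413 against 1159, 7704 and 6601. The summed level of the 20 astrocyte markers lay between 169200 and 271100 in *Kmt2a+/LSL* and between 176200 and 278800 in nes-cre+/-. Of the 20, 12 had a negative log2 fold change, with a median of −0.09, and *S100b* (0.54) was the only one with an unadjusted p under 0.05. For 16 oligodendrocyte lineage genes the median was 0.16, with 1 lower (*Nkx2-2*, −0.42) and 1 higher at that level, but the median was 0.00 without *Kmt2a+/LSL* library 2, 0.03 without *Kmt2a+/LSL* library 3, 0.06 without nes-cre+/- library 1 and 0.02 without nes-cre+/- library 2.

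Markers of cells from outside the neural lineage were at mixed levels. The microglial receptor gene *Csf1r* and the marker *Aif1* stayed at or below 2.93 normalized counts in the 6 libraries, and the endothelial cadherin gene *Cdh5* was at 0 in 5 of 6. Of 15 microglia and macrophage genes in the file, 14 had means under 50. Of the 9 tested, 7 had a negative log2 fold change, with a median of −0.14. *P2ry12*, which was higher, was the single member with an unadjusted p under 0.05, at 8.32, 15.99 and 8.48 against 0, 0 and 1.95. Endothelial and mural markers had 0 genes at an unadjusted p under 0.05 in edgeR, and their summed level, 3585 to 4114 against 3348 to 4547, was mostly *Cspg4*, which oligodendrocyte precursors share. Meningeal and fibroblast genes summed to 22670 to 30830 against 24250 to 28830, mostly *Igfbp2*, and 12 of the 18 in the file had means under 50. Of the 16 tested, 5 had a negative log2 fold change, and the median was 0.11. *Islr* alone was lower at an unadjusted p under 0.05, at 131.2, 155.9 and 117.6 against 226.3, 394.4 and 324.2 (log2 fold change −1.22, SE 0.23, edgeR adjusted p = 0.767). Of its 31-base words 5.73% also occur in its neighbour *Islr2*. Ependymal genes summed to 607.5 to 874.3 against 620.6 to 720.8, with 1 of 13 lower (*Enkur*), and erythroid genes to 18.5 to 21.2 against 12.7 to 18.9.

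Cell cycle genes were on the high side in every member and yet separated in none. All 26 S-phase genes and all 25 mitosis genes had a positive log2 fold change, with medians of 0.26 and 0.22, but 0 of either list had an unadjusted p under 0.05 in edgeR and the libraries of all 51 overlapped. *Mki67*, the proliferation antigen, had 17440, 10740 and 11090 normalized counts in *Kmt2a+/LSL* and 13680, 10930 and 8407 in nes-cre+/-. *Mcm2*, of the replicative helicase, had 3210, 2025 and 2447 against 2900, 1747 and 1566. Library 1 was the highest of its genotype for both genes. Without *Kmt2a+/LSL* library 1 the medians were −0.025 for S-phase and −0.056 for mitosis genes, so their sign rested on that library, and they were 0.056 and 0.057 without nes-cre+/- library 3 and 0.53 and 0.43 without nes-cre+/- library 1. With a term for Y-linked RNA the medians were 0.74 and 0.63. Among 22 CDK inhibitor and p53 response genes the median was −0.04 and 0 had an unadjusted p under 0.05 in edgeR.

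Genes of cholesterol and fatty acid synthesis also lay on the high side throughout. Of 29 tested, 6 were higher and 0 lower at an unadjusted p under 0.05, where 1.5% of all genes were higher, and all 29 had a positive log2 fold change. The median of 0.19 stayed between 0.15 and 0.24 over the alternatives, and none of the 29 passed the adjusted test. With a term for Y-linked RNA 1 of them was higher at an unadjusted p under 0.05 and 1 was negative. The differences were small in each gene and the means of all 29 were above 50. Over the list the normalized counts summed to between 202600 and 241000 in *Kmt2a+/LSL* and between 191900 and 197900 in nes-cre+/-. The sums were 174500 to 219300 in nes-cre+/-Kmt2a+/LSL and 179200 to 231100 in *Kmt2a+/+*, which overlap *Kmt2a+/LSL*.

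*Tm7sf2*, a sterol reductase, had 1220, 1106 and 1106 normalized counts in *Kmt2a+/LSL* and 918.1, 836.2 and 893.6 in nes-cre+/-, a log2 fold change of 0.37 (SE 0.09, edgeR adjusted p = 1). *Fasn*, the fatty acid synthase, had 5391, 5544 and 5414 against 4677, 4656 and 4739, a log2 fold change of 0.22 (SE 0.07, edgeR adjusted p = 1). The libraries of each genotype were tight and separated for both. *Scd1*, the stearoyl-CoA desaturase, had 10760, 9398 and 8225 against 7230, 7391 and 7624, and *Fdps*, which makes farnesyl diphosphate, had 2374, 2348 and 2066 against 2063, 1607 and 1785. The other 2 were *Cyp51* (0.34), the lanosterol demethylase, and *Insig1* (0.20), which restrains SREBP processing.

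Since *Grb10* acts on insulin and IGF receptors and is imprinted, both settings were examined. Of 25 insulin and IGF signalling genes, 3 were lower and 0 higher at an unadjusted p under 0.05: *Grb10*, the receptor substrate *Irs1* (−0.24) and *Igf2bp3* (−0.33), which binds *Igf2* mRNA. *Irs1* was at 916.8, 910.3 and 1012 against 1176, 1148 and 1025, and *Igf2bp3* at 2990, 3642 and 2981 against 3811, 3822 and 4464. The receptors themselves were close to control, *Igf1r* with a log2 fold change of −0.13 (95% interval −0.30 to 0.05) and *Insr* with 0.01 (95% interval −0.16 to 0.19). The list median was 0.02.

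Of 32 tested imprinted genes, *Grb10* alone passed the adjusted test, and the median was −0.01. At an unadjusted p under 0.05 only *Peg3*, a zinc finger gene expressed from the paternal copy, was higher, at 6723, 5427 and 6116 against 5723, 4623 and 4281 (log2 fold change 0.32, SE 0.13, edgeR adjusted p = 1). *Mest*, another paternally expressed gene, was at 3547, 2312 and 4075 against 4906, 3773 and 4112. *Ddc* and *Cobl*, the genes beside *Grb10*, were measured at low levels and their libraries overlapped: *Ddc* had a mean of 44.95 ± 15.9 (SD, n = 3) against 46.38 ± 11.1 (SD, n = 3), and *Cobl* of 34.5 ± 19.9 (SD, n = 3) against 34.9 ± 5.01 (SD, n = 3). Within 1 Mb of *Grb10*, 7 other genes were tested, 0 had an unadjusted p under 0.05 in edgeR, and their log2 fold changes ran from −0.05 to 1.71.

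Genes of neuronal communication and adhesion differed little as groups. Of 30 glutamate and GABA receptor genes, 2 were higher and 0 lower at an unadjusted p under 0.05, among them *Grin3a*, an NMDA receptor subunit, at 755.0, 921.3 and 953.8 against 633.7, 543.8 and 433.6 (log2 fold change 0.71). Its libraries were separated between genotypes, and the list median was 0.09. *Epha4*, a guidance receptor, had a log2 fold change of −2.07 with wide scatter, at 437.1, 94.9 and 66.8 against 442.5, 1538 and 550.8, and *Epha3* of 1.15, and the median of 19 Eph and ephrin genes was −0.08. Of 30 protocadherins and cadherins 1 was higher at that level (*Pcdh18*, 0.39), and of 30 semaphorins, plexins and neuropilins *Sema5b* was lower (−0.30) and *Nrp1* higher (0.27). For 28 matrix genes 23 log2 fold changes were negative, with a median of −0.16 (−0.06 without *Kmt2a+/LSL* library 1, −0.07 without *Kmt2a+/LSL* library 2 or nes-cre+/- library 2, and −0.09 without nes-cre+/- library 3) and 0 at an unadjusted p under 0.05 in edgeR. None of these genes passed the adjusted test.

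Immune, stress and housekeeping groups also held no gene past the adjusted test. Of 27 MHC class I and interferon response genes, 4 were lower and 1 higher at an unadjusted p under 0.05, with a median of −0.20 that ran from −0.35 without *Kmt2a+/LSL* library 3 to −0.09 without *Kmt2a+/LSL* library 2 as each library was left out in turn. The 4 included *B2m*, the invariant chain of MHC class I, at 1548, 1663 and 1706 against 1900, 2176 and 2224 (log2 fold change −0.36, SE 0.09, edgeR adjusted p = 1), and the peptide transporter *Tap2* (−0.64). The members thus did not share a direction. Among 24 stress response genes 2 were higher, *Atf5* (0.35) and the disulfide isomerase gene *Pdia6* (0.53), and the median was 0.08. Immediate early genes had a median of 0.26, with *Egr3* alone at an unadjusted p under 0.05, and the median ran from 0.07 without *Kmt2a+/LSL* library 3 to 0.50 without nes-cre+/- library 1 as each library was left out in turn. Of 60 respiratory chain genes 2 were lower and 1 higher (median 0.02), of 60 ribosomal protein genes 4 were lower and 2 higher (median −0.05), and of 26 glycolysis and hypoxia genes 0 were either in edgeR (median 0.13, and 0.04 without *Kmt2a+/LSL* library 1).

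Over all 37 lists, 847 different genes were tested, and 66 of them had an unadjusted p under 0.05, 43 lower and 23 higher. With DESeq2 size factors in place of TMM the counts at an unadjusted p under 0.05 were the same in every list, and the median of all genes was 0.004.

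**Figure D4:**
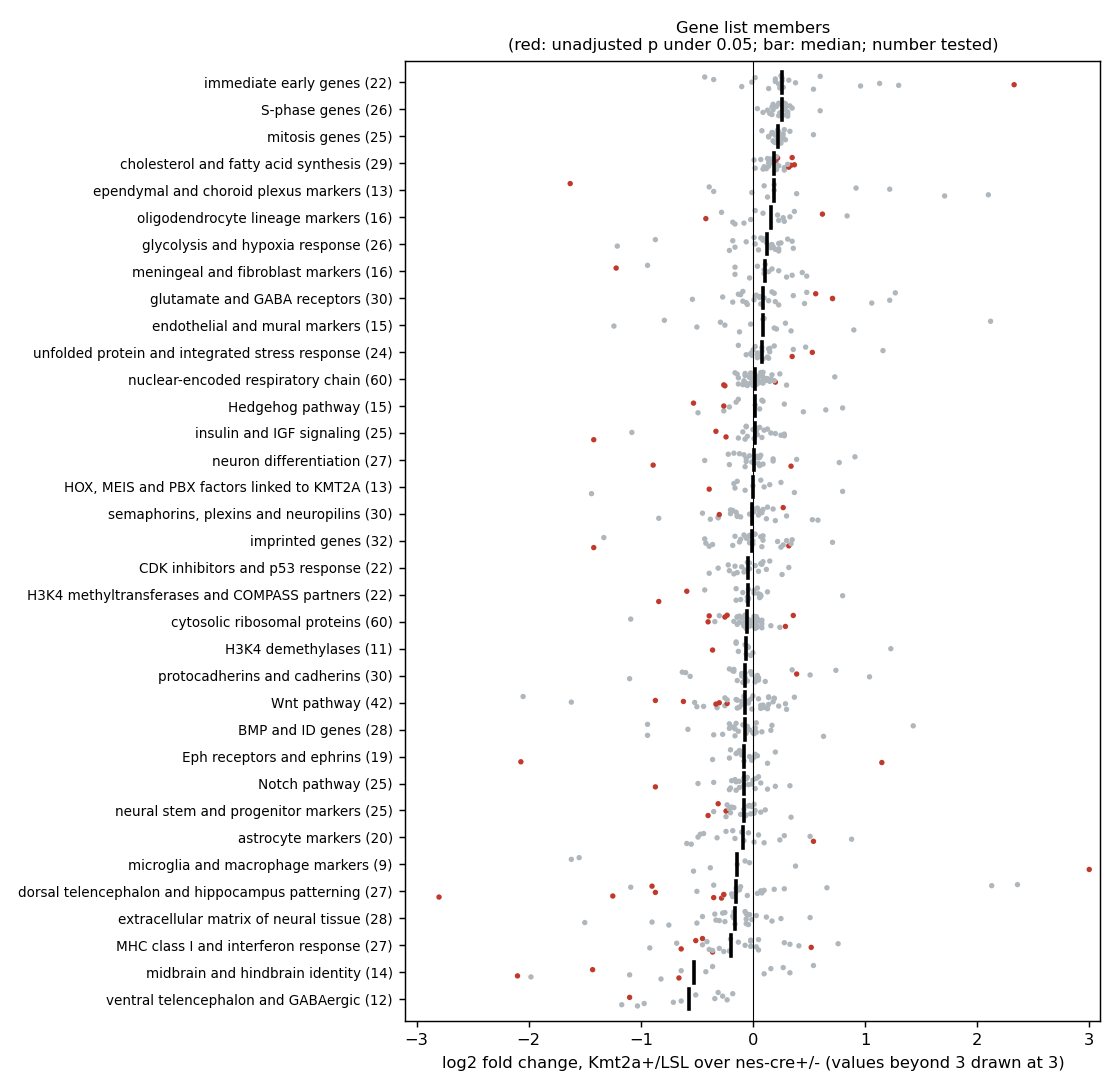
Log2 fold change of *Kmt2a+/LSL* against nes-cre+/- (x axis) of every tested member of 35 gene lists (rows), with the median as a bar, members with an unadjusted p under 0.05 in red and values beyond 3 drawn at 3. Sex-linked genes (median 1.39) and erythroid markers (median 0.29) are not drawn. Medians of the drawn lists lie between −0.57 for ventral telencephalon genes and 0.26 for S-phase genes and immediate early genes, and all 29 cholesterol and fatty acid genes lie above 0.

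Since the genotypes differ in nestin-Cre too, the genes were also looked up in the 6 libraries that the comparison does not use, which differ in nestin-Cre while their *Kmt2a* levels are alike (nes-cre+/-Kmt2a+/LSL against *Kmt2a+/+*). In that contrast 0 of 16118 tested genes passed the adjusted test in edgeR and 107 had an unadjusted p under 0.05. Its *Kmt2a+/+* libraries are the scattered ones left aside above, so it had little power. A nestin-Cre difference cannot be judged from the lack of calls. *Grb10* had a log2 fold change of 0.03 (SE 0.22), *Dmrt3* of −0.01 (SE 0.27) and *Kmt2a* of −0.11 (SE 0.21). Of the genes lower in *Kmt2a+/LSL* at an unadjusted p under 0.05, 304 could be looked up and 47.0% were higher with nestin-Cre, as were 45.02% of 231 genes on the higher side and 46.9% of all 15685. *Nek7* differed most among the named genes, with a log2 fold change of 1.97 (SE 0.28, edgeR adjusted p = 0.977). These libraries also carry the LSL allele in the nestin-Cre group, so the transgene alone was not tested.

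The genes at an unadjusted p under 0.05 were spread over the chromosomes. Chromosome 9, which holds the LSL allele, had 45 of 893 tested genes at that level (5.04%), chromosome 11 had 45 of 1290 (3.49%) and chromosome X 31 of 639 (4.85%), and the highest share was 5.62% on chromosome 14. Within 1 Mb of *Kmt2a*, 46 other genes were tested. None passed the adjusted test, 3 were lower and 2 higher at an unadjusted p under 0.05, and their median log2 fold change was 0.02 with a range of −1.06 to 1.71.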

How the data were processed

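mNPC RNA was poly(A)-selected and sequenced. Deposited were estimated counts for each gene, which the authors made with kallisto 0.48.0 on the mm10 (GRCm38) transcriptome and summed to genes with tximport and biomaRt, and they are given as whole numbers that are not normalized. Tests for counts had been planned and were run on these whole numbers without rounding or rescaling. The file holds 18911 genes in 12 libraries, and 18718 matched a symbol in the GENCODE M21 annotation. Genotypes and replicate numbers come from the labels.

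The tools were edgeR 4.0.16, limma 3.58.1 and DESeq2 1.42.0 under R 4.3.3. A gene entered the fit of the 6 libraries when it had over 10 counts in all and was found in 2 or more of them. Counts were scaled with TMM and tested with edgeR's two-sided quasi-likelihood F-test for genotype, with no other term. A gene was called when its p, adjusted by Benjamini-Hochberg over all tested genes, was under 0.05. The scripts were tested on simulated data. Intervals are 95% intervals of the fit. They cover the spread between libraries, while the 3-count floor covers counting error only.

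Named genes were *Kmt2a*, *Grb10*, *Nek7*, *Dmrt3*, *En2* and *Sox5*, the called genes, and in each direction the 5 genes with the smallest p among those with a mean of at least 50 and no overlap between genotypes, without predicted genes. The comparison, the 37 gene lists and this rule were chosen with earlier results of these data known. From each list, up to 4 called members were named. Members at an unadjusted p under 0.05, well-known members near the control level and the other genes named were chosen after their values were seen.

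Alternatives were fits of 9 and 12 libraries, DESeq2 size factors, the DESeq2 Wald test, limma-voom, no filter, a block for the replicate number, a filter of 10 counts or more in each library, robust quasi-likelihood, an adjusted p under 0.1, and each library left out in turn. A term for Y-linked RNA (more than 100 counts of *Ddx3y*) and a fit of the 4 libraries that have it were chosen after seeing the data. Shared sequence was measured as the 31-base words of a gene that transcripts of other genes also hold, in percent. Some members of the lists are not reported here by name, though the counts and medians include them.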

Additional observations from a re-analysis of the deposited data

How the results depend on the processing

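The 2 calls, both lower, were also 2 with 9 libraries in the fit, DESeq2 size factors, limma-voom, at least 10 counts in every library, robust quasi-likelihood and an adjusted p under 0.1. The count was 1, lower, with 12 libraries in the fit, and 19 with the DESeq2 Wald test, 15 lower and 4 higher. Without a filter 3 genes were called, 1 of them higher (*Ddx41*). A term for Y-linked RNA left 0 lower calls and 1 higher (*Rrp36*), and the 4 libraries with Y-linked RNA left 0 lower and 1 higher (*Hsph1*). The *Kmt2a* log2 fold change was −0.84 with 12 libraries (edgeR adjusted p = 0.247), −0.85 with the term for Y-linked RNA (0.408) and −0.84 over the libraries with Y-linked RNA (0.365), no longer past the threshold. Both of these fits rest on nes-cre+/- library 3 as the single control, and the cause of the other changes was not tested.

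Leaving out 1 library gave 0 to 7 calls, 0 to 4 lower and 0 to 5 higher, and a *Kmt2a* log2 fold change between −0.87 and −0.81. The count was 0 without *Kmt2a+/LSL* library 2 or 3 or nes-cre+/- library 2, 1 without *Kmt2a+/LSL* library 1 (*Ddx41*, higher) and 4 without nes-cre+/- library 1 (*Kmt2a*, *Grb10*, *Gm12895* and *Gm12896*, lower). It was 7 without nes-cre+/- library 3, the only control library with Y-linked RNA: *Grb10* and *Gm26992* lower, and *Ndst2* and the Y-linked *Kdm5d*, *Uty*, *Ddx3y* and *Eif2s3y* higher. The *Sox5* log2 fold change ranged from −0.08 to 0.02, positive only without *Kmt2a+/LSL* library 1.

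With the replicate number as a block the count was 1, lower (*Gm26992*), and the log2 fold changes were −0.84 for *Kmt2a* and −1.43 for *Grb10*, both with an edgeR adjusted p of 0.0755. Deviations of same-numbered libraries correlated at 0.104, −0.00883 and 0.0172. The labels do not say what the number stands for, and whether same-numbered libraries share an origin was not tested. Over the named genes, 184 of 208 values under an alternative kept direction and side of the threshold, and 534 of 591 list medians moved by less than the spread between libraries. Erythroid genes had no value with at least 10 counts in every library. At this depth and n, genes under 50 normalized counts had a median SE of 0.65 on the log2 scale, against 0.12 above it.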

Other observations

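The DESeq2 Wald test called 17 genes that edgeR did not, and those not yet described are given here as values, chosen after they were seen. A mean under 50 in a genotype was found for 7 of the 19 calls. Several showed all-or-none levels that did not follow genotype. *Ddx11*, a DNA helicase, was at 0 in each *Kmt2a+/LSL* library and at 75.1, 19.98 and 63.5 normalized counts in nes-cre+/-, and at 0, 19.7 and 87.6 in *Kmt2a+/+*. *Neil1*, a DNA glycosylase, was at 18.5, 30.98 and 9.54 in *Kmt2a+/LSL* and 0 in each nes-cre+/- library, but also at 0 in 2 of 3 *Kmt2a+/+* libraries. *Zfp869*, a zinc finger gene that shares 13.3% of its 31-base words with *Zfp868*, was at 21.3, 24.98 and 28.6 against 0, 3.16 and 0. It was at 138.2, 52.7 and 32.6 in nes-cre+/-Kmt2a+/LSL and at 101.1, 12.8 and 0 in *Kmt2a+/+*.

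*Gm26992*, which shares 92.5% of its 31-base words with *Tsix*, the antisense partner of *Xist*, was at 2134, 2039 and 0 normalized counts in nes-cre+/- and at 2060 and 2110 in a single library each of nes-cre+/-Kmt2a+/LSL and *Kmt2a+/+*. It was at 1.06 or below in every other library. The 4 libraries that hold it are those with 38 or fewer counts of Y-linked RNA.

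Of the other lower DESeq2 calls, *Mfap4*, a microfibril protein, was at 8.32, 17.0 and 8.48 against 55.1, 40.0 and 52.7. *Emid1*, a matrix protein with an EMI domain, was at 200.5, 215.8 and 237.4 against 318.4, 431.2 and 403.3, and *Pdlim3*, an actin-associated PDZ-LIM protein, at 266.2, 328.7 and 195.0 against 408.5, 522.7 and 589.9. All 3 had wide ranges in *Kmt2a+/+*, from 6.04 to 90.6 for *Mfap4*, from 19.6 to 556.6 for *Emid1* and from 178.1 to 407.9 for *Pdlim3*. None passed the edgeR adjusted test (adjusted p = 0.767, 0.767 and 1).

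The remaining 4 calls were predicted genes whose reads are shared with other genes. *Gm12895* and *Gm12896* had identical values (571.1, 642.5 and 565.9 against 835, 1457 and 1281 normalized counts) and share 99% of their 31-base words, and a single nes-cre+/-Kmt2a+/LSL library held 20360. *Gm10221* (100% of words shared) was at 0 in each *Kmt2a+/LSL* library and at 6.01, 70.5 and 12.7 in nes-cre+/-, and *Gm20431* (98.9%) at 84.1, 113.9 and 193.9 against 252.3, 342.9 and 403.3.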
